A study of Mus musculus with 10 samples.

Results

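The interferon regulatory factors (IRFs) are a family of transcription factors, and the genes of 8 of them, Irf1, Irf2, Irf3, Irf4, Irf5, Irf7, Irf8 and Irf9, were followed in the mouse hippocampus. They were chosen by name, and all 8 were found among the 24391 gene names of the count tables. Total RNA of the bilateral whole hippocampus was sequenced from 10 male C56BL/6J mice (as the study's methods spell the strain), 10 to 14 weeks old, with 1 library per mouse, and the operated mice were sampled 4 days after surgery. In SAH mice (subarachnoid hemorrhage, n = 4) a filament led through the carotid artery punctured the circle of Willis, the arterial ring under the brain, and mice were kept in this group only if regional blood flow dropped at the puncture. In Sham mice (n = 3) the filament was led to the same point without a puncture, and Naive mice (n = 3) were not operated on. Surgery was done under isoflurane anesthesia, and the labels give no drug treatment for any group. The 6 Sham and Naive mice together are called control. Mice are named by their numbers in the labels, SAH 1 to 4, Sham 5 to 7 and Naive 8 to 10.

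IRF proteins share a DNA-binding domain that reads repeats of the letters GAAA, the interferon-stimulated response element (ISRE). IRF3, IRF5 and IRF7 lie in the cytoplasm until a sensor of foreign nucleic acid leads to their phosphorylation, after which they enter the nucleus and switch on interferon genes. Interferons then act through JAK kinases: type I interferons lead to a complex that holds IRF9 and binds the ISRE, and genes that answer to interferon gamma often carry a gamma-activated site (GAS). IRF1 and IRF2 bind the same sites, IRF1 mostly as an activator and IRF2 mostly as a repressor, while IRF4 and IRF8 work with partners in lymphocytes and in macrophages and microglia. In the brain, microglia, the resident macrophages, hold IRF5 and IRF8, and IRF7 is an interferon-induced gene in many cell types.

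Total counts ranged from 19743388 to 27254655 per mouse, and all pairs of libraries differed by more than sampling noise (lowest chi-square per gene 3.61, where sampling noise alone gives about 1). The library of SAH 3 had the lowest median correlation with the other mice (r = 0.984, the others 0.989 to 0.995, over log2 values of 14993 genes). Genes of the choroid plexus, the tissue that makes cerebrospinal fluid, summed to 1236 CPM in SAH 3, 867 CPM in SAH 4 and 832 CPM in Sham 7, and results are also given without these 3. They summed to 102 CPM in SAH 1, 217 CPM in SAH 2, 212 CPM in Sham 5, 57.5 CPM in Sham 6 and 44.3 to 67.8 CPM in the Naive mice, so that the 4 SAH mice lay above the 3 Naive mice. Of these 8 genes 0 were called in SAH against control (median log2 fold change 1.28), against Sham (0.59) or in Sham against Naive (1.98), and 2 were called higher against Naive (2.55), Kcnj13 by 3.64 (adjusted p = 0.0363) and Ttr by 4.30 (adjusted p = 0.0874). CPM are counts scaled for library size and composition. Summed markers of hippocampal neurons lay between 8450 and 9831 CPM in all mice. The genes of B and plasma cells summed to 0.411 to 0.735 CPM and those of neutrophils to 0.226 to 1.26 CPM, and none of either list passed the filter on low counts. The T cell genes summed to 1.51 to 2.47 CPM, most of it Lck (32 to 47 counts per mouse, log2 fold change −0.08, adjusted p = 0.846), while Cd3e, Cd3d, Cd3g and Cd8a had 0 to 2 counts in every mouse. In whole tissue, more cells of a type and more RNA per cell cannot be told apart.

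Of the 8 genes, 3 rose after SAH: Irf7 4.29-fold, Irf1 1.49-fold and Irf8 1.40-fold. Irf2, Irf3 and Irf5 were within the spread between mice, Irf9 stood apart in 1 SAH mouse and did not pass the test, and Irf4 was at the edge of detection. The threshold was an adjusted p under 0.10 from edgeR's quasi-likelihood test, which over all 14993 genes tested called 3.13% higher in SAH and 1.54% lower. Irf4 did not pass the filter on low counts, so that 3 of 7 tested members were called higher and 0 lower. The median log2 fold change of the 7 was 0.37, against −0.00237 over all genes tested. The same 3 genes had all 4 SAH mice above all 6 control mice, as did 2.83% of all genes tested, and 0 of the 7 had them all below, as did 2.37%. SAH 4 had the highest level of all 10 mice for 7 of the 8 members.

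**Figure D1:**
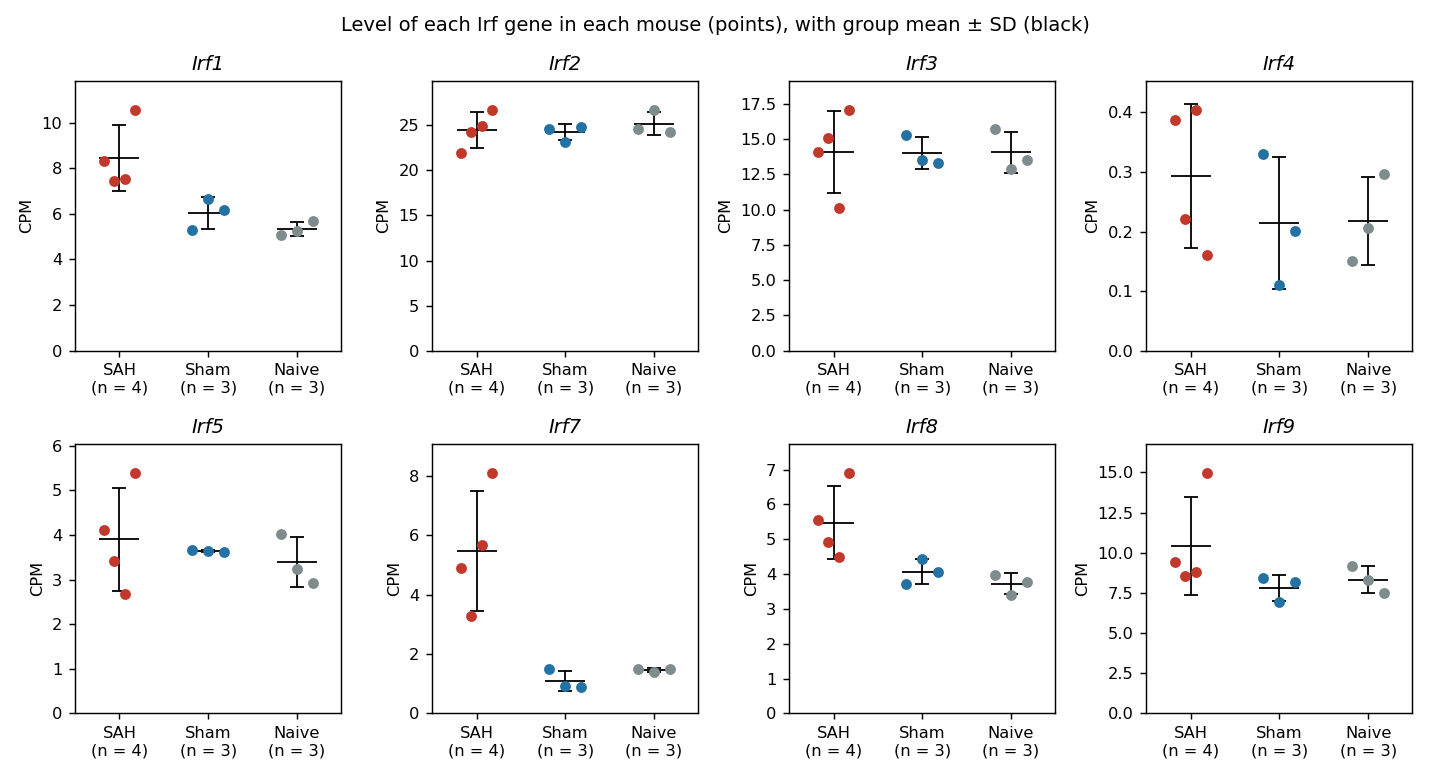
Level of each Irf gene in CPM (vertical axes, from 0) in each SAH, Sham and Naive mouse (points), with the group mean and SD (black). Irf7 is at 3.27 to 8.11 CPM after SAH and 0.885 to 1.504 CPM in the 6 control mice, Irf1 and Irf8 separate by less, and the groups of the other 5 overlap.

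Irf7, the inducible factor that amplifies the type I interferon response, lies on the minus strand at mm9 chr7:148449082-148452323, counted over 10 exon blocks of 1859 bases in all. It was read at 4.88, 3.27, 5.66 and 8.11 CPM in SAH 1, 2, 3 and 4. Sham 5, 6 and 7 gave 1.49, 0.919 and 0.885 CPM, and Naive 8, 9 and 10 gave 1.504, 1.39 and 1.49 CPM. The lowest SAH mouse was thus above the highest control mouse. Behind these levels stood 89 to 203 counts per SAH mouse and 22 to 40 per control mouse, so that counting error alone gives a coefficient of variation of 8.90% in SAH, where the mice varied by 36.8%. The log2 fold change was 2.10 ± 0.24 (SE, 95% interval 1.59 to 2.62, adjusted p = 0.00084 from edgeR), the 10th smallest p of all genes tested. It lay at 1.84 without SAH 4 and 1.58 (adjusted p = 0.00124) without SAH 3, SAH 4 and Sham 7.

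Irf3, the constitutive factor that acts beside IRF7, lies on the plus strand at mm9 chr7:52253018-52258218. Its levels in SAH 1 to 4 were 14.1, 15.04, 10.1 and 17.1 CPM. They were 15.3, 13.5 and 13.3 CPM in Sham 5 to 7 and 15.7, 12.9 and 13.5 CPM in Naive 8 to 10. SAH 3 and SAH 4 held the lowest and the highest values of all mice, and the group means were 14.1 ± 2.92 (SD, n = 4) and 14.04 ± 1.17 CPM (SD, n = 6). The log2 fold change of 0.01 (95% interval −0.24 to 0.26) was not called (edgeR adjusted p = 0.979). Irf5, a factor of macrophages and B cells used by Toll-like receptors (plus strand, mm9 chr6:29476625-29487320), ranged from 2.68 CPM in SAH 3 to 5.40 CPM in SAH 4 and from 2.93 to 4.02 CPM in control. Its 95% interval of the log2 fold change, −0.21 to 0.51, was wider than that of Irf3, and its adjusted p was 0.679.

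Irf1, a mediator of the interferon gamma response, lies on the plus strand at mm9 chr11:53583516-53591876. It stood at 8.32, 7.43, 7.53 and 10.6 CPM in SAH 1 to 4. Sham 5 to 7 had 5.28, 6.65 and 6.15 CPM, and Naive 8 to 10 had 5.08, 5.25 and 5.69 CPM. The groups did not overlap, and the highest control mouse, Sham 6, lay 0.775 CPM below the lowest SAH mouse. The log2 fold change was 0.57 ± 0.12 (SE, adjusted p = 0.0193), and it was 0.44 (adjusted p = 0.0719) without SAH 4 and 0.49 (adjusted p = 0.0798) without the 3 mice rich in choroid plexus RNA. Irf2, which competes with IRF1 for its sites, is spread over 107714 bases on the plus strand at mm9 chr8:47825099-47932812. It had 21.95 to 26.7 CPM in SAH and 23.2 to 26.7 CPM in control. With the narrowest interval of the members, −0.14 to 0.12, its log2 fold change of −0.01 was not called (adjusted p = 0.946).

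Irf8, which is needed for microglia and macrophages to form, lies on the plus strand at mm9 chr8:123260258-123280592. It was measured at 5.56, 4.93, 4.50 and 6.91 CPM in SAH 1 to 4. Sham 5 to 7 gave 3.71, 4.45 and 4.06 CPM, and Naive 8 to 10 gave 3.99, 3.39 and 3.78 CPM. SAH 3 exceeded Sham 6 by 0.0482 CPM only, and with library size alone as the scaling the groups overlapped. The log2 fold change was 0.49 ± 0.13 (SE, adjusted p = 0.0627). Without SAH 4 the log2 fold change was 0.35 (adjusted p = 0.198), and without SAH 3, SAH 4 and Sham 7 it was 0.43 (adjusted p = 0.201). The call was also lost with 1 control mouse fewer, where the change moved little. It was 0.50 (adjusted p = 0.127) without Naive 8, 0.45 (0.130) without Naive 9, 0.48 (0.123) without Naive 10 and 0.47 (0.118) without Sham 5. Irf4, the related factor of lymphocytes and plasma cells (plus strand, mm9 chr13:30841127-30858796), had 3 to 8 counts in every mouse, or 0.110 to 0.404 CPM. Tested without the filter, its log2 fold change of 0.40 had a 95% interval of −0.46 to 1.26, so that a change was not detectable at this depth.

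Irf9, which gives the complex formed after type I interferon its DNA binding, lies on the plus strand at mm9 chr14:56222822-56228867. Its levels were 9.43, 8.53, 8.79 and 14.99 CPM in SAH 1 to 4. The 6 control mice lay between 6.91 and 9.18 CPM, and 2 of the 4 SAH mice lay above them all. The log2 fold change was 0.37 ± 0.15 (SE, adjusted p = 0.215), and without SAH 4 it was 0.14 (adjusted p = 0.484).

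**Figure D2:**
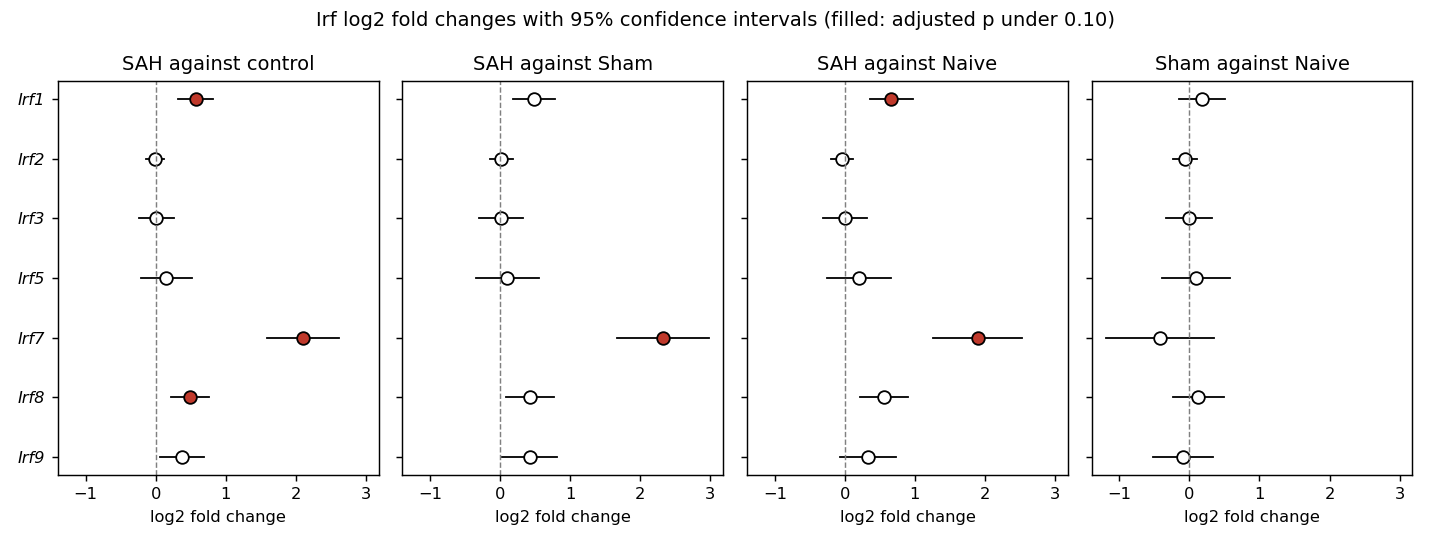
Log2 fold change (horizontal axes) of the 7 tested Irf genes in 4 comparisons, with 95% confidence intervals and filled points where the adjusted p was under 0.10. Irf7 is filled against control, Sham and Naive mice, Irf1 against control and Naive, Irf8 against control, and 0 genes are filled in Sham against Naive.

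The Sham mice separate the effects of surgery from those of the hemorrhage. SAH against Sham and SAH against Naive share the SAH mice, and both share all their mice with SAH against control. Against Sham, Irf7 rose by 2.32 ± 0.30 (log2 scale, SE, adjusted p = 0.0113) and was the 1 member called, among 0.529% of genes called higher and 0.192% lower. Without Sham 6 the adjusted p was 0.101 at a log2 fold change of 2.20. Against Naive, Irf7 (1.90, adjusted p = 0.00692) and Irf1 (0.67, adjusted p = 0.0352) were called, where 2.03% of genes were called higher and 0.965% lower. Of the 8 choroid plexus genes 2, Kcnj13 and Ttr, were also called higher in this comparison (median log2 fold change of the 8, 2.55). The part of choroid plexus RNA in both calls was not tested. Without SAH 3, SAH 4 and Sham 7, Irf7 was at 1.46 (adjusted p = 0.00471) and Irf1 at 0.56 (adjusted p = 0.0636) against Naive, with SAH 1 and SAH 2 still above the Naive mice in choroid plexus genes. The call of Irf1 was lost without Naive 8 (adjusted p = 0.194) and without Naive 9 (0.159), at log2 fold changes of 0.63 and 0.66. Irf1 and Irf8 had similar log2 fold changes against Sham (0.49 and 0.43) and Naive (0.67 and 0.56), and those not called had adjusted p-values of 0.212 and 0.378 against Sham and 0.115 for Irf8 against Naive. DESeq2 called Irf8 against Naive too (adjusted p = 0.0715), as did edgeR without SAH 2 (0.0960) or without SAH 3 (0.0458). The 305 genes with an unadjusted p under 0.05 in Sham against Naive held none of the members. There, edgeR called 0.00661% of genes higher and 0% lower, and Irf7 had the largest difference of the members, a log2 fold change of −0.42 ± 0.35 (SE, 95% interval −1.19 to 0.35, adjusted p = 1.00).

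Letters upstream of the genes were compared with those that the family and factors acting beside it read. Promoters were taken from RefSeq (GRCm38.p6), which had 11 starts for the 8 genes, and the 250 bases before each start were found once each on their mm9 chromosome. Shown are the windows before the starts, as the count tables give them, of the called genes and of Irf2, the 1 member with an ISRE match, each 5′ to 3′ on the strand of its gene, with matches in capitals. They are from chr7:148452324-148452573 (minus strand) for Irf7, chr11:53583266-53583515 for Irf1, chr8:123260008-123260257 for Irf8 and chr8:47824849-47825098 for Irf2 (plus strand).
Irf7: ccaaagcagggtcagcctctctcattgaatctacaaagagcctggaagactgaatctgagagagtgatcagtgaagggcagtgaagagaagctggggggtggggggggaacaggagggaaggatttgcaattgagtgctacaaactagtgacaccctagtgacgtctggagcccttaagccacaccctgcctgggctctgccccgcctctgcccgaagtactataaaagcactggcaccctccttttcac
Irf1: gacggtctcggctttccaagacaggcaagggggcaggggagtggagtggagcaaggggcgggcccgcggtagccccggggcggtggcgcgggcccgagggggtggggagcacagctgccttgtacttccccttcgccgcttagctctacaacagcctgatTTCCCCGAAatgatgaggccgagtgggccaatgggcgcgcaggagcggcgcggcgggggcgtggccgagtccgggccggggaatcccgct
Irf8: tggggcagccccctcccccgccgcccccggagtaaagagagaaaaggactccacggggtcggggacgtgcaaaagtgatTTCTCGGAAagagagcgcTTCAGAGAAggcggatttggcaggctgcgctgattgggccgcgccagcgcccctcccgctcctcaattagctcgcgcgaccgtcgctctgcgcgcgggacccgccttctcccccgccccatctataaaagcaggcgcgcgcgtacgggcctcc
Irf2: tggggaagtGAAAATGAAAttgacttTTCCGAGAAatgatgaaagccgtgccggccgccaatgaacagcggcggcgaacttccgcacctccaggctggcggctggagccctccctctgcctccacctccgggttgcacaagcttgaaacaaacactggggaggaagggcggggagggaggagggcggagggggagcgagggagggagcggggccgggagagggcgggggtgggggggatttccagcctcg
Searched on both strands were the ISRE core GAAANNGAAA, where N is any base, and the GAS core TTCNNNGAA, which reads the same on both strands. A GAS core was in the windows of 3 of the 8 members, at 90 to 82 bases before the start of Irf1, at 171 to 163 and 153 to 145 bases before that of Irf8, and at 224 to 216 bases before that of Irf2. By window, the GAS core was in 3 and the ISRE core in 1 of the 11 windows of the members. The GAS core was in 7.02% of the 32851 windows of this length upstream of all RefSeq starts, and the ISRE core was in 2.98%. The ISRE core was in the window of Irf2 alone, at 241 to 232 bases before the start and not overlapping the GAS core there. Of these genes Irf1 and Irf8 were called and Irf2 was not, and the window of Irf7, the gene with the largest change, held neither set of letters.

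Each member was also read against its place in the genome. No other gene name overlapped any of the 8, and the counts were taken in the sense direction. Of the 16 nearest tested genes, 1 on each side of each member, 0 were called in SAH against control (log2 fold changes −0.52 to 0.74, lowest adjusted p 0.103). Phrf1, which lies 432 bases from Irf7, was at −0.24 (adjusted p = 0.245), and Bcl2l12 and Scaf1, 69 and 102 bases from Irf3, had −0.31 (adjusted p = 0.494) and −0.16 (adjusted p = 0.109).

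Levels of different genes were compared as CPM per kilobase of counted exon. In control the order of the means was Irf2 (9.94 ± 0.457, SD, n = 6), Irf3 (6.41 ± 0.535), Irf9 (3.01 ± 0.291), Irf1 (1.69 ± 0.183), Irf5 (1.47 ± 0.160), Irf8 (1.14 ± 0.104), Irf7 (0.687 ± 0.158) and Irf4 (0.0461 ± 0.0180). The ranges of the neighbours Irf1 and Irf5, and of Irf5 and Irf8, overlapped among the control mice, and the other neighbours were apart. Irf2, Irf3 and Irf9 held places 1, 2 and 3, and Irf4 place 8, in all 10 mice. Irf7 was in place 7 in all 6 control mice and in place 4 or 5 in the 4 SAH mice, at 2.95 ± 1.08 CPM per kilobase (SD, n = 4). In SAH it came between Irf9 (3.88 ± 1.14) and Irf1 (2.52 ± 0.432), and its range overlapped with those of both.

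Related members were set against each other within each mouse, as log2 ratios of counts with 0.5 added, which library size does not enter. In each ratio the first gene was called in SAH against control and the second was not. The pairs were chosen with earlier results of these data known. Their p-values are thus not separate support for those calls. The ratio of Irf7 to Irf3 was −1.53, −2.19, −0.83 and −1.07 in SAH 1 to 4, −3.35, −3.85 and −3.88 in Sham 5 to 7 and −3.37, −3.19 and −3.17 in Naive 8 to 10. In counts, Irf7 was thus read at 21.9% to 56.1% of Irf3 after SAH and at 6.81% to 11.1% in control. The difference of the means was 2.06 (p = 0.00952, adjusted p = 0.0143, 2-sided exact permutation test over 210 splits, adjusted over 3 ratios), and this p is the smallest that the test can give. The ratio of Irf1 to Irf2 was higher in SAH by 0.58 (p = 0.00952, adjusted p = 0.0143, same exact test), at −1.73 to −1.34 in SAH and −2.34 to −1.80 in control. For Irf8 to Irf5, both myeloid, the values were 0.36 to 0.74 in SAH and −0.01 to 0.36 in control. There Naive 10 (0.365) lay just above SAH 4 (0.357), and the difference was 0.37 (p = 0.0190, adjusted p = 0.0190, same exact test). With the Naive mice alone as control the adjusted p of Irf8 to Irf5 was 0.114 at a difference of 0.38.

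**Figure D3:**
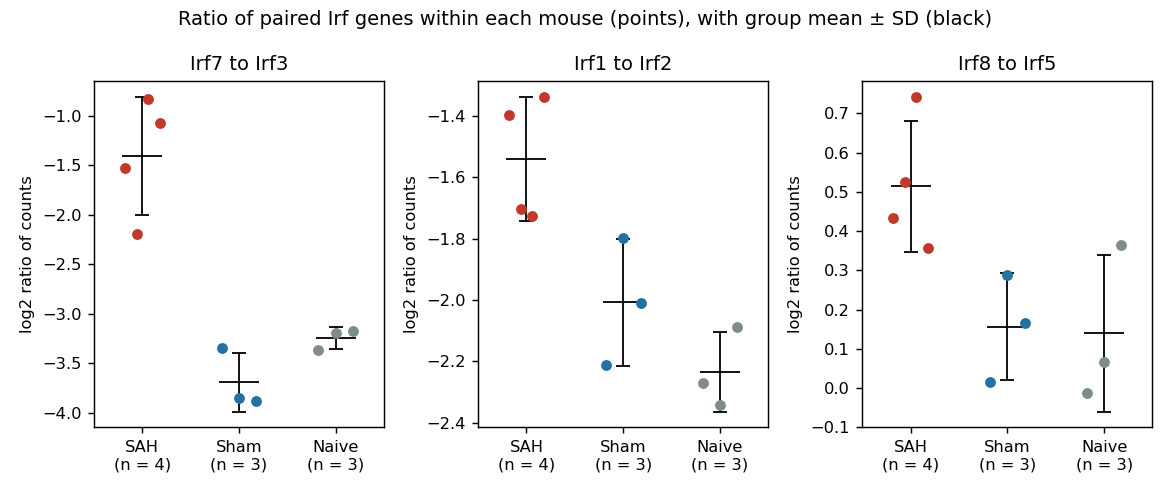
Log2 ratio of the counts of 2 Irf genes (vertical axes) in each SAH, Sham and Naive mouse (points), with the group mean and SD (black). Irf7 to Irf3 and Irf1 to Irf2 are higher in each SAH mouse than in each control mouse, while Irf8 to Irf5 of SAH 4 (0.357) lies below Naive 10 (0.365).

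Around the family, 6 lists of genes were followed from sensors to targets. Over all genes tested, 3.13% were called higher and 1.54% lower in SAH against control. Against Sham these shares were 0.529% and 0.192%, and against Naive 2.03% and 0.965%. Upstream of IRF3, IRF5 and IRF7, 3 of 19 tested sensors, adaptors and kinases rose and 0 fell (median log2 fold change 0.20). Unc93b1, which carries Toll-like receptors to endosomes, rose by 0.50 (adjusted p = 0.00772), and the RNA sensors Ddx58 (RIG-I) and Ifih1 (MDA5) by 0.57 (adjusted p = 0.0121) and 0.56 (adjusted p = 0.0722). Tlr7, the receptor of single-stranded RNA, was at 0.96 and did not pass (standard error 0.32, adjusted p = 0.137). Tlr3 at 0.17 (adjusted p = 0.138) and Traf3 at −0.18 (adjusted p = 0.172) did not pass either. The number that rose was 5 without SAH 1 or without SAH 2, and 2 without Naive 8, Naive 9, Naive 10, Sham 6 or Sham 7. Calls over all genes moved the same way. With all mice 470 genes were called higher, against 596 without SAH 1, 686 without SAH 2 and 271 to 450 without 1 of these control mice. The fit of 3 groups tested 20 of these genes, and it called 0 against Sham and 2, Unc93b1 and Ddx58, higher against Naive (medians 0.19 and 0.23).

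Of the ligands, Ifnb1, Ifna1, Ifna2, Ifna4 and Ifna5 had 0 counts in all 10 mice. A count of 0 allows up to 3 counts by counting error, but the Ifna genes are close copies of each other, and read pairs that hit several places were discarded before counting, so their zeros do not measure their level. Ifng had 0 to 2 counts in SAH and 0 to 1 in control. Of 4 tested receptor genes, Ifnar1, Ifnar2, Ifngr1 and Ifngr2, 0 were called, with log2 fold changes between −0.14 and 0.13. Among the 11 JAK-STAT components, Usp18, a brake on the type I receptor, rose by 1.70 (adjusted p = 0.00629) and Pias1, an inhibitor of this signalling, by 0.13 (adjusted p = 0.0916). Stat2 (0.09, adjusted p = 0.573), a partner of IRF9, was not called, nor were Socs3 (1.04, adjusted p = 0.166) and Ptpn2 (−0.17, adjusted p = 0.391). The number of JAK-STAT components that rose was 4 without SAH 2. It was 1 without SAH 3, without SAH 4 and without any 1 of the 6 control mice. With at least 10 counts required in every mouse, 1 of 9 rose. Over all genes 470 were called higher with all mice and 686 without SAH 2. They were 416 without SAH 3, 223 without SAH 4 and 271 to 450 without 1 control mouse. Against Sham 0 of the 11 were called, and against Naive Usp18 alone was called (1.98, adjusted p = 0.0177).

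Of 26 tested type I interferon targets, 17 rose and 0 fell (median 0.65). Over all genes tested the median was −0.00237, and 3.13% were called higher. A gene could pass the filter on low counts through the SAH mice alone. With at least 10 counts required in every mouse, 14 of 22 type I targets rose and 0 fell. Ifi27l2a rose by 2.41 (adjusted p = 0.00151), Bst2, which tethers virus particles to the cell, by 1.56 (adjusted p = 0.000758) and Ifitm3, which blocks viral entry, by 1.31 (adjusted p = 0.000667). Ifit1 and Ifit3, which bind viral RNA, rose by 1.41 (adjusted p = 0.00284) and 1.35 (adjusted p = 0.00235), and Lgals3bp by 1.35 (adjusted p = 0.000959). The number that rose was 10 without SAH 4, and 14 without SAH 3, SAH 4 and Sham 7. Of the 29 tested in the fit of 3 groups, 9 were called higher against Sham and 12 against Naive (medians 0.94 and 0.87). Of 17 tested targets of interferon gamma, IRF1 or IRF8, 16 rose and 0 fell (median 0.80). With at least 10 counts required in every mouse, 14 of 15 rose. Against Sham 1 of the 17, B2m, was called higher (median 0.67), and against Naive 8 were (median 0.83). Over all genes tested, 0.529% were called higher against Sham and 2.03% against Naive. B2m, the light chain of MHC class I, rose by 0.84 (adjusted p = 0.00463), Tapbp, which loads peptides onto it, by 0.33 (adjusted p = 0.0106), and Psmb9 of the immunoproteasome by 1.10 (adjusted p = 0.0181). The interferon-induced GTPases Gbp3, Gbp6 and Irgm1 rose by 0.86, 1.08 and 0.69 (adjusted p = 0.0107, 0.0121 and 0.0149). This count moved with single mice: 7 rose without SAH 4, 9 without Naive 8 or Naive 10, and 10 without Naive 9. Without SAH 3, SAH 4 and Sham 7 it was 8. Calls over all genes also fell in these fits. With all mice 470 genes were called higher, against 223 without SAH 4, 271 without Naive 8 and 288 without Naive 10. They were 320 without Naive 9 and 257 without SAH 3, SAH 4 and Sham 7.

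Of 8 tested partners and inhibitors of IRFs, Trim21, a ubiquitin ligase of several IRFs, rose by 0.61 (adjusted p = 0.0858) and Irf2bp2, a corepressor that binds IRF2, fell by 0.32 on the log2 scale (adjusted p = 0.0308). Its relatives Irf2bp1 (−0.15, adjusted p = 0.299) and Irf2bpl (−0.07, adjusted p = 0.438) were not called. Spi1 (PU.1), with which IRF4 and IRF8 bind DNA, was at 0.20 (adjusted p = 0.464), Tnfaip3 at −0.20 (adjusted p = 0.515), and Batf, another partner of these factors, did not pass the filter on low counts, with 5 to 9 counts in SAH and 0 to 5 in control. Without the filter Batf was at 1.42 (adjusted p = 0.162). Trim21 was not called without SAH 2, SAH 3 or SAH 4, without any 1 of the Naive mice, or without Sham 5 or Sham 6, and without SAH 4 Irf2bp2 was not called either. In the fit of 3 groups 0 of 9 were called against Sham, and against Naive Trim21 was called higher and Irf2bp2 lower.

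**Figure D4:**
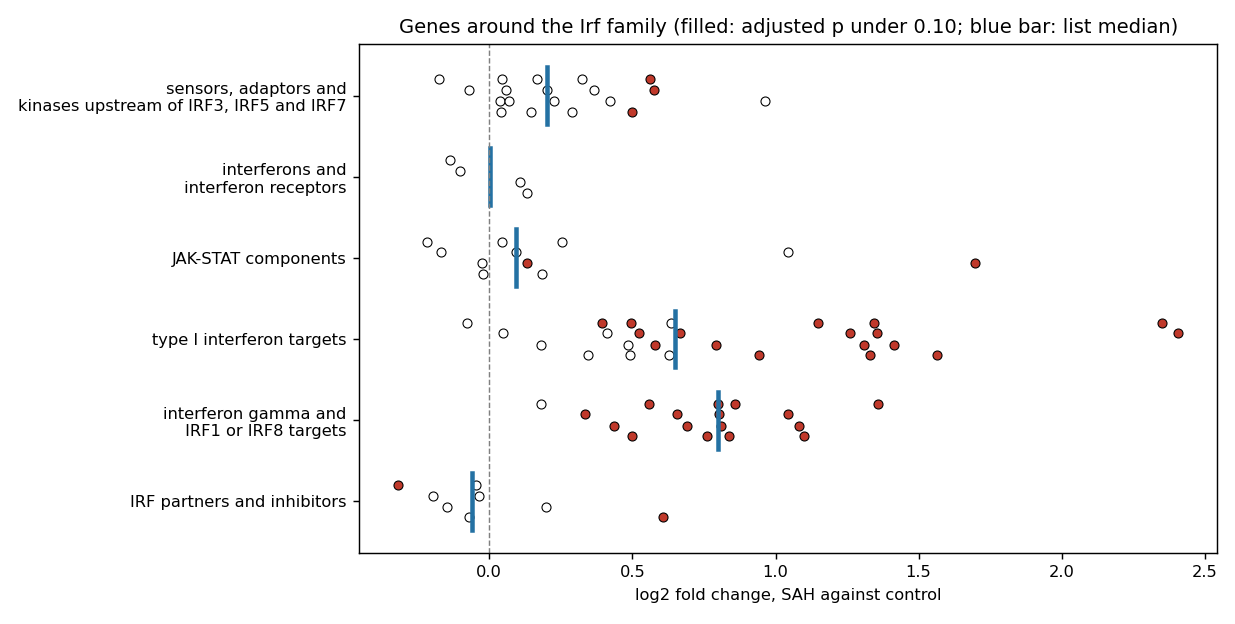
Log2 fold change in SAH against control (horizontal axis) of each tested gene (points, filled where the adjusted p was under 0.10) in the 6 lists around the Irf family (rows), with the median of each list (blue bar). Most points of the type I interferon targets (17 of 26) and of the interferon gamma targets (16 of 17) are filled and to the right of 0, against 0 of 4 receptors. Over all genes tested, 3.13% were called higher.

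The levels of markers of microglia and other cells that hold IRFs were set beside the rises. The 12 microglia markers summed to 455 to 553 CPM in SAH and 421 to 468 CPM in control, highest in SAH 4, and 5 of the 12 were called higher, with a median log2 fold change of 0.20. P2ry12 (−0.05), Cx3cr1 (−0.06) and Tmem119 (0.08), which define resting microglia, were not called (adjusted p = 0.812, 0.756 and 0.679). The mean log2 level of the 12, with the control mean set to 0, was 0.01 to 0.33 in SAH and −0.08 to 0.07 in control. Taken relative to that mean, Irf7 was 1.29 to 2.29 in SAH and −0.53 to 0.27 in control. Irf1 was 0.32 to 0.56 against −0.14 to 0.23, and Irf8 was 0.20 to 0.49 against −0.11 to 0.19. On this scale these 3 of the 7 tested members had the SAH mice above the control mice, as did 1.15% of all genes tested, and 0 had them below, as did 8.65%. The ranges of Irf2, Irf3, Irf5 and Irf9 overlapped. Markers of border macrophages, which line vessels and meninges, summed to 14.7 to 18.9 CPM in SAH, 8.67 to 10.1 CPM in Sham and 5.53 to 6.07 CPM in Naive, and 4 of the 6 were called higher. Of the meningeal fibroblast markers 5 of 6, and of the endothelial markers 3 of 6, were called higher. Against Sham, 0 of 12 microglia, 2 of 6 border macrophage, 2 of 6 fibroblast and 1 of 6 endothelial markers were called higher. Against Naive these numbers were 1, 4, 5 and 1. Over all genes tested the share called higher was 3.13% against control, 0.529% against Sham and 2.03% against Naive. The fibroblast markers summed to 95.1 to 171 CPM in SAH and 86.5 to 120 CPM in control. The endothelial ones summed to 117 to 229 CPM in SAH, highest in SAH 4, and 104 to 144 CPM in control. The 4 monocyte markers summed to 31.5 to 35.1 CPM in SAH and 26.9 to 34.4 CPM in control, but nearly all of this was Vcan (means 32.3 and 30.6 CPM), which glial precursors also make and which was not called (0.08, adjusted p = 0.613). The other 3 did not pass the filter on low counts in SAH against control. Tested without it, Ccr2, the receptor of inflammatory monocytes, rose by 2.45 on the log2 scale (adjusted p = 0.0177), with 2 to 32 counts in SAH and 1 to 6 in control. In the fit of 3 groups Ccr2 passed the filter and was not called against Sham (2.32, adjusted p = 0.217) or Naive (2.60, adjusted p = 0.103). Also without the filter, Ly6c2, a surface protein of the same cells, was at 2.49 (adjusted p = 0.0672) and Plac8 at 0.86 (adjusted p = 0.647). Ly6c2 had 2 to 5 counts in SAH and 0 to 1 in control, about the floor of 3 counts and at the edge of detection. Dendritic cell markers summed to 11.5 to 13.6 CPM in SAH and 11.1 to 13.1 CPM in control. Nearly all of this was Flt3 (means 7.65 and 7.73 CPM) and Zbtb46 (4.41 and 4.25 CPM), which were not called (adjusted p = 0.961 and 0.870). Cd209a had 2 to 4 counts in SAH and 0 to 3 in control, and Xcr1 and Clec9a had 0 or 1 count in every mouse. Of 5 red blood cell markers, the 4 globin genes Hba-a1, Hba-a2, Hbb-b1 and Hbb-b2 were at 0 counts in all 10 mice. These are near-identical copies of the alpha and of the beta chain genes, and read pairs that hit several places were discarded before counting, so the list does not measure red cell content. Alas2, the marker left, was at 1.06 to 3.68 CPM in SAH and 1.32 to 2.57 CPM in control (0.36, adjusted p = 0.546). The part of the microglia, border macrophage, monocyte, fibroblast, endothelial and choroid plexus cells in the rises of Irf7, Irf1 and Irf8 was not tested.

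**Figure D5:**
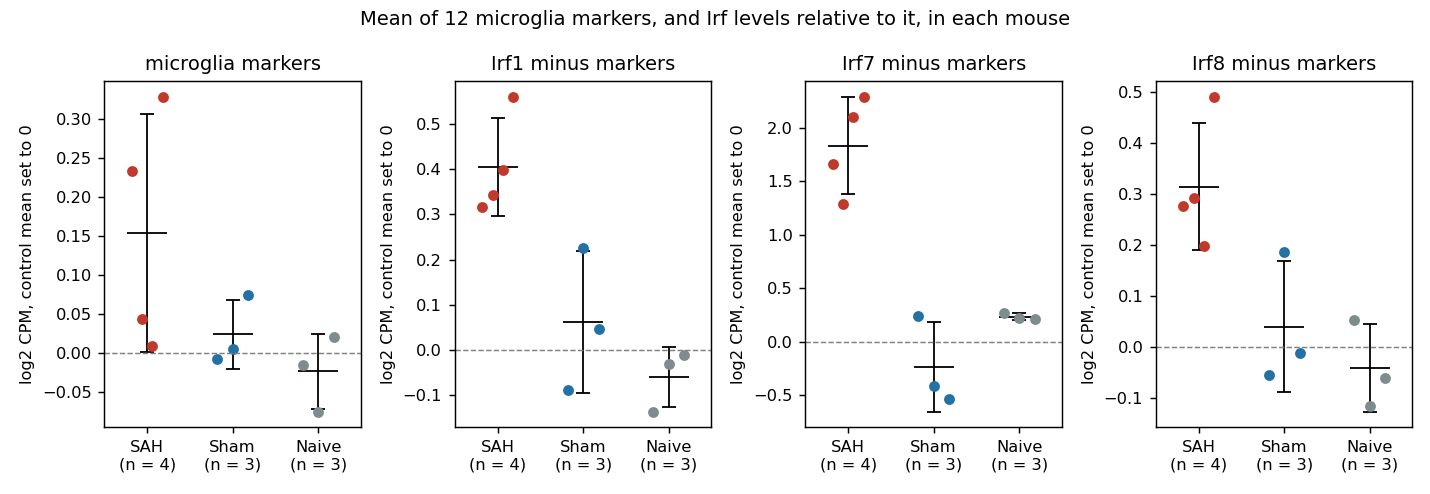
Mean log2 CPM of 12 microglia markers, and of Irf1, Irf7 and Irf8 relative to that mean, with the control mean set to 0 (vertical axes), in each SAH, Sham and Naive mouse (points), with the group mean and SD (black). The markers overlap between groups, while Irf7 relative to them spans 1.29 to 2.29 after SAH and −0.53 to 0.27 in control.

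For each called member, the 3 tested genes with the most similar pattern over the 10 mice were found, by the mean absolute difference of log2 CPM after setting the control mean of each gene to 0. This measure takes in the difference between groups by which the members were called. For Irf7 these were Ly9 (0.386), a receptor of lymphocytes and macrophages, the chemokine Ccl12 (0.391) and the complement component C4b (0.394), with log2 fold changes of 2.20, 1.98 and 1.81, and 0 genes came within 0.25 of it. For Irf1 they were Gprc5c (0.0772), the lysosomal protease Ctsh (0.0776) and Unc93b1 (0.0795), and for Irf8 Unc93b1 (0.0686), Irf1 (0.0812) and the kinase Bmx (0.0915). Many genes lay near these 2, with 1616 within 0.25 of Irf1 and 4843 within 0.25 of Irf8.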

How the data were processed

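RNA sequencing was analysed for 10 mice (SAH n = 4, Sham n = 3, Naive n = 3). The authors aligned read pairs to mm9 with STAR, merged lanes and counted pairs per gene name with featureCounts 1.6.2 (reverse-stranded, union of exons, pairs hitting several places or genes discarded). The deposited values are these raw counts, 19743388 to 27254655 per mouse, and the authors' DESeq2 results were not used. The floor of 3 counts covers counting error only.

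CPM, log2 CPM (prior count 2) and tests were computed from the counts with edgeR 4.0.16 in R 4.3.3: TMM scaling, filterByExpr (minimum count 10, minimum total 15), quasi-likelihood test, Benjamini-Hochberg adjustment over all genes tested, threshold 0.10. SAH was compared with control in a fit of 2 groups, and pairwise comparisons came from a fit of 3 groups. Standard errors are the log2 fold change divided by the square root of F, and they and the intervals include the spread between mice. Ratios were tested by 2-sided exact permutation (scipy 1.17.1). The code was tested on simulated data. The members, lists and tests were chosen with earlier results of these data known.

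Named were all 8 members, from each list up to 6 genes with the smallest p plus direct partners (Stat2, Spi1, Batf, Irf2bp1, Irf2bp2, Irf2bpl), and the 3 genes most like each called member. An item under this rule is not reported here. Marker genes, ligands without counts and genomic neighbours named outside this rule were chosen after their values were seen. Alternatives were DESeq2 1.42.0, other scalings, filters, thresholds and mice. Leaving out SAH 3, SAH 4 and Sham 7 together (choroid plexus markers over 500 CPM) was added after seeing the data.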

Additional observations from a re-analysis of the deposited data

Results flagged for a closer look

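Irf9 was far higher in 1 SAH mouse than in the other 3. SAH 4 had 14.99 CPM, and its gap to the next mouse was 0.861 of the range of the SAH mice. Such a gap was looked for in 22 groups of values, and chance alone gives 1 in 20. SAH 4 also had the highest level of 7 of the 8 members, the highest summed microglia markers (553 CPM) and the highest summed endothelial markers (229 CPM). Without it the log2 fold change of Irf9 in SAH against control was 0.14.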

How the results depend on the processing

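Of the members called, 3 in SAH against control, 1 against Sham and 2 against Naive, 1, 0 and 1 passed an adjusted p under 0.01. With each mouse left out in turn, these numbers ranged from 2 to 3, from 0 to 1 (0 without Sham 6) and from 1 to 3 (1 without Naive 8 or 9, 3 without SAH 2 or 3). Irf7 and Irf1 were called in SAH against control in each such fit, and Irf8 was not without SAH 4, Naive 8, Naive 9, Naive 10 or Sham 5, nor at an adjusted p under 0.05. DESeq2, other scalings and filters, the robust fit and the fit of 3 groups left these 3 calls as they were. Without SAH 3, SAH 4 and Sham 7 the members called were 2, 1 and 2. The difference in log2 ratio of Irf8 to Irf5 was 0.38 (adjusted p = 0.114, exact permutation test) with Naive alone, and 0.29 to 0.42 with each mouse left out. No direction of a called value reversed. With 4 against 3 mice an exact permutation p cannot go below 0.0571. At an adjusted p under 0.05, 8 targets of interferon gamma, IRF1 or IRF8 rose, and at one under 0.01, 1 of these, 9 type I interferon targets and 1 sensor. The cause of these shifts was not tested. In Sham against Naive 0 members were called in any fit. Depth limits Irf4 (3 to 8 counts).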
